A study of Mus musculus with 6 samples.

Results

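The cells described are macrophages of EMT6 mammary tumors that carried transcripts of C1q, the recognition molecule of the classical complement pathway. They were chosen by transcript counts, not by sorting. A cell of the tumor libraries was taken when its unique molecular identifiers (UMIs, each standing for 1 captured transcript) summed to at least 10 for C1qa, C1qb and C1qc, with at least 1 UMI of Tyrobp, a myeloid signalling adaptor. It also had to hold 0 UMIs of the T cell gene Cd3e and at most 1 UMI of the keratins Krt8 and Krt18 that mark carcinoma cells. The rule took 771 of 8599 kept cells from tumors labelled WT (8.97%, 95% Clopper-Pearson interval 8.37 to 9.59) and 591 of 6341 from tumors labelled Cysltr1 KO (9.32%, 8.62 to 10.1). These 1362 cells were part of 14940 kept tumor cells and of 43810 kept cells in all 6 libraries. The genes of this rule are a description of the choice and support no comparison.

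C1q is made mostly by macrophages, and in tumors its subunits mark macrophages that have settled in the tissue more than freshly arrived monocytes. Such cells clear dying cells, load and export lipid with the carrier Apoe, present antigen on MHC class II and release chemokines. Mrc1 encodes CD206, a mannose receptor used as a mark of alternatively activated and tissue-resident type macrophages. Cysltr1 encodes a receptor for the cysteinyl leukotrienes, lipid mediators of inflammation.

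The mice bore tumors of EMT6, a mouse mammary carcinoma line, and were either Cysltr1-deficient or BALB/c wild-type controls. Tumor and spleen cells had been enriched for CD45 with magnetic beads and bone marrow cells for hematopoietic progenitors. Each of 3 tissues gave 1 library per genotype, and each library pooled 3 mice, so differences could not be checked against replicates, and no test or p-value is given. The strain on which the deficiency was bred, the deleted part of Cysltr1, the age of the mice and the age of the tumors are not given in the sources used here. WT and KO stand for these labels in what follows.

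Levels are given as CPM, counts scaled to a common total over all genes, of the UMIs summed over a group of cells, with 95% intervals that cover counting error only and hold neither variation between mice nor between preparations. The C1q macrophages held 6767468 UMIs in the WT tumor and 6266566 in the KO tumor, with a median of 7989 and 9723 UMIs per cell. The median share of mitochondrial UMIs was 2.14% and 1.72%. The tumor libraries shared 88 cell barcodes, and 0 of these were C1q macrophages in both. A doublet score called 8.04% of the C1q macrophages in the WT tumor and 13.03% in the KO tumor. Beside this stood 7.79% and 5.50% of all kept cells, a share set in advance from the number of barcodes. The called cells were kept except where stated.

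Cysltr1 (chromosome X, 106574346 to 106603679, minus strand, mm10) was counted at 59.1 CPM (400 UMIs, 53.5 to 65.2) in C1q macrophages of the WT tumor and at 26.6 CPM (167 UMIs, 22.8 to 31.0) in those of the KO tumor. The KO level was 0.451 of the WT level (0.374 to 0.541), and 270 WT and 130 KO cells held a UMI. Transcripts of the targeted gene were thus still counted in the library labelled KO, and which part of the gene they came from cannot be told from the counts. In tumor myeloid cells with few C1q transcripts the ratio was 0.858 (0.597 to 1.23). Neutrophils held 8 UMIs in the WT tumor and 12 in the KO tumor. Fndc3c1, another gene of chromosome X (106420041 to 106485401), held 0 UMIs in the WT cells and 66 UMIs in 57 KO cells. Its KO level of 10.5 CPM was at least 23.8-fold higher, against a floor of 3 counts over the WT cells.

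The markers carried the label. The scavenger-associated protein Cd68 stood at 726 CPM in WT and 728 CPM in KO cells and was seen in 94.6% and 96.4% of them, against 11.9 and 12.2 CPM in keratin-positive carcinoma cells of the same libraries. The CSF-1 receptor gene Csf1r reached 358 and 401 CPM, against 4.10 and 2.65 CPM in the keratin-positive cells. Adgre1, which encodes F4/80, reached 107 and 93.4 CPM, and the high-affinity Fc receptor gene Fcgr1 232 and 275 CPM. The 8 macrophage markers other than C1q and Mrc1 summed to 6150 and 4369 CPM, against 47.7 and 36.6 CPM in keratin-positive cells. Keratin-positive cells were chosen to lack Tyrobp UMIs, so their low myeloid levels may be partly fixed by the choice. The same sum was 4530.5 and 3468 CPM in tumor myeloid cells with few C1q transcripts, and 2035 and 823 CPM in neutrophils. It thus separated the C1q macrophages from carcinoma cells far more than from other myeloid cells.

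Markers of other cell types were low apart from those of neutrophils, monocytes and fibroblasts. The dendritic cell genes Flt3 (3 and 5 UMIs), Xcr1 (3 UMIs in each library) and Clec9a (4 and 8 UMIs) were near 0 in both libraries. The B cell genes Cd79a (14 and 34 UMIs) and Ms4a1 (0 and 9 UMIs) and the red cell enzyme gene Alas2 (0 UMIs) were near or at 0 as well. Summed T cell markers stood at 3.84 and 7.02 CPM, those of natural killer cells at 11.53 and 18.5 CPM, those of dendritic cells at 30.9 and 47.1 CPM, those of B and plasma cells at 4.43 and 13.7 CPM, those of endothelium at 13.2 and 9.10 CPM, and those of carcinoma cells at 30.6 and 28.1 CPM. The limits on Cd3e, Krt8 and Krt18 were part of the rule, so the T cell and carcinoma sums were partly fixed by the choice. Of the monocyte markers, summing to 362 and 356 CPM, Ly6c2 stood at 48.5 and 43.7 CPM, against 305 and 329 CPM in C1q-low myeloid cells. All 8 neutrophil markers were counted, at 3072 CPM in WT and 3773 CPM in KO cells, with S100a9 alone at 1844 and 2306 CPM, against 37139.5 and 40142.5 CPM in tumor neutrophils. All 6 fibroblast markers were counted as well, at 239 CPM in WT and 84.9 CPM in KO cells, and Col1a1 at 57.8 and 19.95 CPM. They were lower in KO than in WT also in C1q-low cells (440 and 133 CPM) and neutrophils (914 and 366 CPM), but stood at 1251 and 1221 CPM in keratin-positive cells. The part of these transcripts in the results was not tested.

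The C1q limit fell in a thin stretch of the distribution. In the WT tumor 83.9% of kept cells, and in the KO tumor 82.4%, held 0 to 2 C1q UMIs, 451 and 408 cells held 3 to 9, and the chosen cells had a median of 47 and 61. Just outside the limit, at 8 or 9 UMIs, 34 and 33 cells had Cd68 at 535 and 692 CPM and Apoe at 3381 and 1393 CPM. Just inside, at 10 or 11 UMIs, 28 and 26 cells had Cd68 at 679 and 606 CPM and Apoe at 3073 and 1726 CPM.

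The C1q macrophages were then divided by Mrc1, which asked what else distinguished CD206-bearing cells among them. Cells with 2 or more Mrc1 UMIs carried more transcripts of scavenger receptors, of tissue-resident type macrophage genes and of a set of CC chemokines than cells with 0 Mrc1 UMIs, in both libraries. The largest ratios were those of Cbr2, Ccl8 and Folr2, between 4.33-fold and 19.0-fold. The macrophage gene Csf1r was about equal on both sides, and MHC class II genes were lower on the Mrc1 side in the WT tumor but not in the KO tumor.

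In the WT tumor 354 C1q macrophages held 0 Mrc1 UMIs, 147 held 1 and 270 held 2 or more (35.02%, 31.7 to 38.5). In the KO tumor 227 held 0, 103 held 1 and 261 held 2 or more (44.2%, 40.1 to 48.3). The highest cells held 99 and 114 Mrc1 UMIs. The split followed depth: the 2+ cells had a median of 8710.5 UMIs in WT and 11751 in KO, and the 0 cells 7523 and 7583. When every cell was thinned to 2000 UMIs, leaving out 11 WT and 15 KO cells that were shallower, 12.1% of 760 WT cells and 12.2% of 576 KO cells held 2 or more. At equal depth the shares differed by less than their counting intervals (9.87 to 14.6 and 9.60 to 15.1).

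Within gene limits of at least 100 UMIs and a mean of 50 CPM in each library, 39 of 2645 genes (1.47%) were past 1.5-fold higher in the 2+ cells of both libraries, and 0 (0%) were lower in both. In the WT tumor alone 94 genes (3.55%) were higher and 26 (0.983%) lower, and in the KO tumor alone 84 (3.18%) were higher and 6 (0.227%) lower. None of these counts has a test.

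Summed neutrophil transcripts were also higher on the 2+ side. The 8 neutrophil markers summed to 3686 CPM in 2+ cells and 2372 CPM in 0 cells of the WT tumor, and to 4030 and 3353 CPM in the KO tumor. In WT cells with 0, 1, 2, 3 to 4 and 5 or more Mrc1 UMIs, S100a9 stood at 1423, 2040, 1605, 2445 and 2461 CPM. In KO cells it stood at 2132, 2376, 1174, 1953 and 3536 CPM. KO cells with 2 and with 3 to 4 were thus below those with 0. C1qa rose over these groups in WT, at 2164, 2239, 2577, 2913 and 3664 CPM. In KO it stood at 2501, 2755, 2263, 2539 and 3037 CPM. Without cells of 20 or more S100a8 and S100a9 UMIs, a setting added after the data were seen, 40 genes were higher in both libraries, 30 of them among the 39. In that setting 16 of 20 tissue-resident type genes in WT and 15 of 20 in KO were higher, and 11 of 15 and 7 of 13 scavenger receptors.

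Cbr2 (chromosome 11, 120729489 to 120732114, minus strand), a carbonyl reductase used as a marker of resident-type macrophages, had the largest ratio of the genes within the limits. In the WT tumor it stood at 187 CPM (171 to 205) in 2+ cells and 9.87 CPM (6.56 to 14.3) in 0 cells, a 19.0-fold ratio (12.98 to 28.9). In the KO tumor it stood at 123 CPM (111 to 136) and 14.6 CPM (9.75 to 20.9), an 8.44-fold ratio (5.79 to 12.8). It was seen in 96 of the 270 WT and 62 of the 261 KO cells with 2 or more Mrc1 UMIs, so most of these cells held no Cbr2 transcript at this depth.

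The scavenger and uptake receptors were higher on the Mrc1 side. Folr2, a folate receptor of resident-type macrophages, stood at 184 CPM against 33.1 CPM in WT (5.54-fold, 4.44 to 6.99) and at 133 against 30.6 CPM in KO (4.33-fold, 3.31 to 5.76). Siglec1, the sialic acid receptor CD169, stood at 125 against 31.0 CPM in WT and at 78.0 against 23.1 CPM in KO. Stab1, the scavenger receptor stabilin-1, stood at 222 against 55.3 CPM and at 165 against 55.2 CPM. Of the list of scavenger and endocytic receptors, 12 of 16 measured in WT were past 1.5-fold higher and 1 lower, with a median log2 ratio of 1.63, and in KO 8 of 15 were higher and 2 lower, with a median of 0.64. The medians over all genes within the limits were 0.03 and 0.04.

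Cd163, the haemoglobin scavenger receptor, and Lyve1, a hyaluronan receptor of perivascular macrophages, were below the gene limits and came from few cells. Cd163 stood at 63.6 CPM in WT 2+ cells (28 cells) against 1.41 CPM in 0 cells (4 cells), and at 23.5 CPM (13 cells) against 1.51 CPM (3 cells) in KO. Lyve1 reached 112 CPM in 26 WT and 51.1 CPM in 15 KO cells of the 2+ side, against 2.82 CPM and 1.51 CPM on the 0 side. Both were highest in cells with at least 5 Mrc1 UMIs, where Cd163 reached 143 CPM in WT and 51.8 CPM in KO and Lyve1 249.6 and 117 CPM.

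The tissue-resident type list moved most evenly, with 17 of 21 measured genes higher and 0 lower in each library, and median log2 ratios of 1.55 in WT and 1.06 in KO. Pf4, the platelet factor 4 chemokine, stood at 1203 against 377 CPM in WT and at 1249 against 434 CPM in KO. Maf, a transcription factor of mature macrophages, stood at 105 against 35.3 CPM (2.98-fold, 2.36 to 3.78) and at 76.7 against 23.6 CPM (3.252-fold, 2.37 to 4.54). Fcgrt, the neonatal Fc receptor chain, stood at 194 against 32.1 CPM in WT and at 161 against 46.2 CPM in KO. Selenop, a selenium carrier, stood at 229 against 98.7 CPM and at 290 against 87.4 CPM. F13a1, the coagulation factor XIII A chain, stood at 335 against 98.4 CPM and at 130 against 45.7 CPM. Fcrls, an Fc receptor-like scavenger gene, stood at 162 against 59.6 CPM and at 109 against 36.7 CPM. Ltc4s, the synthase of leukotriene C4, the parent cysteinyl leukotriene, stood at 120 against 31.4 CPM in WT and at 69.1 against 32.6 CPM in KO.

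Among the chemokines, Ccl8 (chromosome 11, 82115185 to 82116799), an attractant of monocytes and T cells, stood at 966 CPM (928 to 1004) against 108 CPM (96.5 to 121) in WT, an 8.92-fold ratio (7.92 to 10.1). In KO it stood at 1432 CPM (1392 to 1474) against 212 CPM (193 to 234), a 6.74-fold ratio (6.105 to 7.47). It was seen in 99 WT and 130 KO cells of the 2+ side, and the highest single cell held 13.5% and 8.45% of its UMIs there. The monocyte attractants Ccl7 (1930 against 910 CPM in WT, 2443 against 1213 CPM in KO) and Ccl12 (776 against 349 CPM, 1067 against 586 CPM) were higher in both libraries. Of the chemokine list, 6 of 15 measured were higher and 0 lower in WT, and 5 of 16 were higher and 2 lower in KO.

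**Figure D1:**
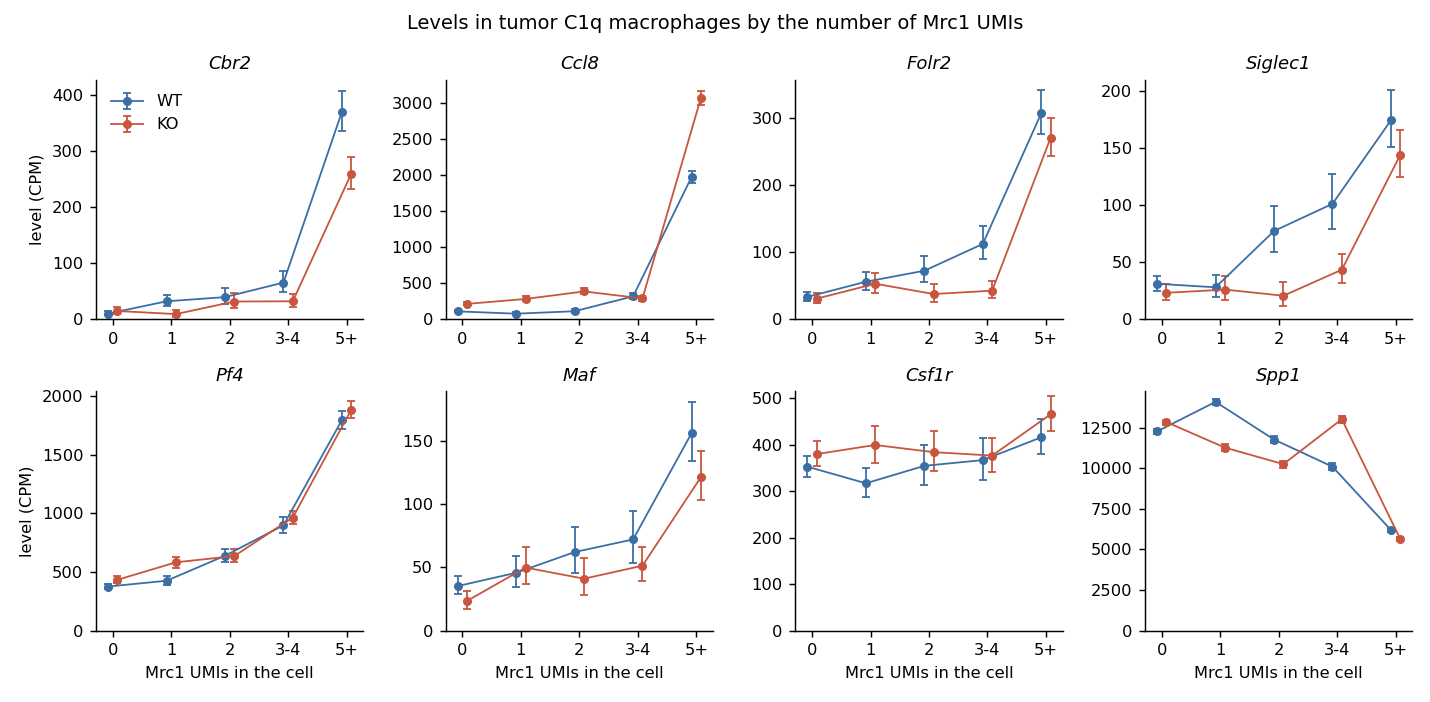
Level of 8 genes in C1q macrophages grouped by their Mrc1 UMIs (0, 1, 2, 3 to 4, 5 or more), in CPM of the group's summed UMIs, for the WT tumor (blue) and the KO tumor (red), with 95% Poisson bars for counting error. Cbr2, Ccl8, Folr2 and Siglec1 were highest in cells with 5 or more Mrc1 UMIs in both libraries, Csf1r was nearly flat, and Spp1 was lowest there.

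The plot of levels by Mrc1 count shows where the difference sat. Ccl8 stood at 108, 76.0, 110, 317 and 1977 CPM in WT cells with 0, 1, 2, 3 to 4 and 5 or more Mrc1 UMIs, and at 212, 281, 385, 288 and 3078 CPM in KO cells. Cbr2 stood at 9.87, 31.8, 39.3, 65.1 and 369 CPM in WT and at 14.6, 8.97, 31.4, 31.8 and 259 CPM in KO. For both genes most of the 2+ level came from the cells with at least 5 Mrc1 UMIs, and cells with 1 to 4 were closer to the cells with 0. Pf4 was more graded, at 377, 426, 638, 898 and 1793 CPM in WT and 434, 583, 637, 964 and 1882 CPM in KO. Csf1r was between 317 and 416 CPM in every WT group and between 377 and 466 CPM in every KO group.

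Other programmes differed less between the sides. Csf1r was 1.09-fold higher on the 2+ side in each library. Spp1, which encodes osteopontin, was lower on the 2+ side, at 8925 against 12261 CPM in WT and at 9358 against 12835 CPM in KO, short of the 1.5-fold limit. The lipid receptor gene Trem2 stood at 470 against 372 CPM in WT and at 346 against 367 CPM in KO. Lipid-associated genes were higher in 4 and lower in 2 of 20 in WT, and higher in 3 and lower in 0 of 20 in KO. Complement genes other than C1q were higher in 2 of 12 in WT and 3 of 13 in KO. Genes of the cell cycle, hypoxia, NF-kB targets and lysosome had at most 1 of 19 to 22 measured genes past the limit in either direction in each library.

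The MHC class II genes differed between the libraries on this axis. Cd74, the invariant chain, stood at 719 CPM in WT 2+ cells against 1287 CPM in WT 0 cells (0.559, 0.529 to 0.591). In KO it stood at 3298 against 3163 CPM (1.04, 1.01 to 1.08). Of the list, 0 of 6 measured were higher and 4 lower in WT (median log2 ratio -0.69), and 0 of 7 were higher or lower in KO (median 0.06). In cells of 5000 to 12000 UMIs, a range added after the data were seen, 0 of 6 in WT were lower (median -0.19) and 2 of 7 in KO (median -0.15), so the libraries lay close to each other there. Thinned to 2000 UMIs, with the sides still set by raw Mrc1 UMIs, 4 of 6 in WT were lower and 0 of 6 in KO. The difference between the libraries in this ratio has no test.

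**Figure D2:**
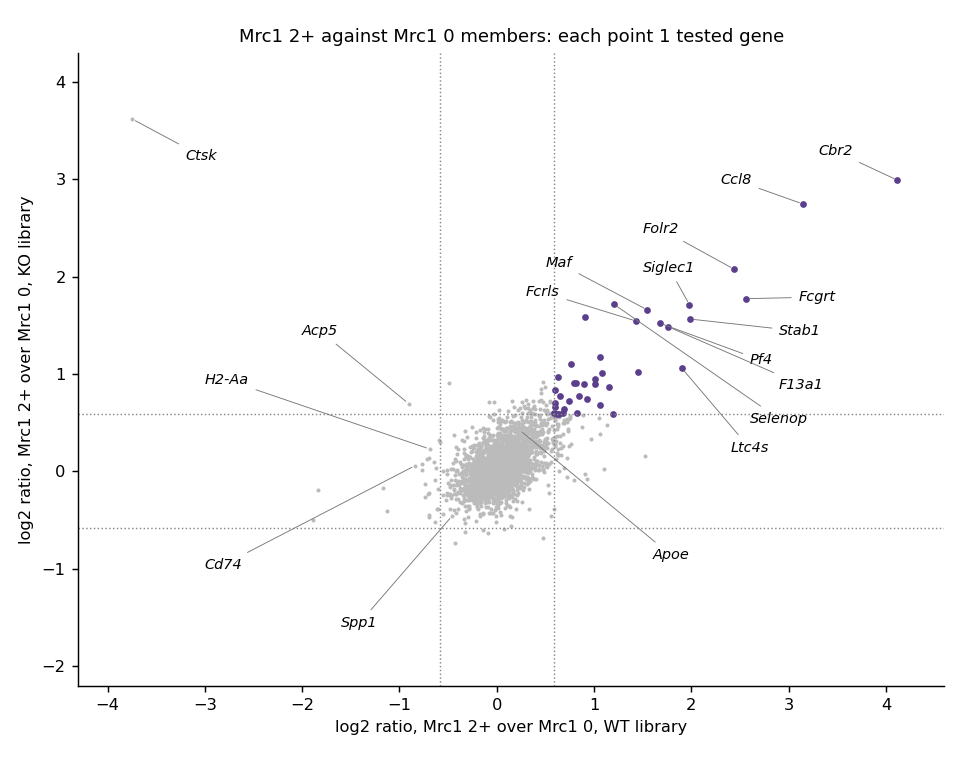
Log2 ratio of C1q macrophages with 2 or more Mrc1 UMIs to those with 0, for the WT tumor (x) and the KO tumor (y), for the 2645 genes within the limits, each point a gene and the dotted lines marking 1.5-fold. The 39 genes past the limit in both libraries (purple) all lie at the upper right, with Cbr2 and Ccl8 farthest out, and 0 genes lie past it at the lower left.

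The comparison of KO with WT asked how the transcripts of C1q macrophages differed between the labelled genotypes. KO cells carried about 3 to 4 times the MHC class II transcripts of WT cells and more transcripts of genes induced by interferon gamma, among them the chemokine genes Cxcl9 and Cxcl10. They carried fewer transcripts of the lipid carriers Apoe and Apoc2, of Tnf and of the matrix genes Fn1 and Thbs1. Cd68, Csf1r and Spp1 were near equal. Several of these differences, the MHC class II genes first, were of like size in other cells of the same tumors.

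Of 2724 genes within the limits, 28 (1.03%) were past 1.5-fold higher in KO and 23 (0.844%) lower, with a median log2 ratio of 0.00. Here a gene also had to reach 20% of its highest level among the tumor's neutrophils, keratin-positive cells, T cells and cells without Ptprc, the gene of CD45, as a guard against free RNA.

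MHC class II presents peptides to CD4+ T cells, and its chains, chaperones and loading factors are switched on together by the co-activator Ciita. H2-Eb1 (chromosome 17, 34305867 to 34316674, plus strand), a beta chain, stood at 159 CPM (150 to 169) in WT and 685 CPM (665 to 706) in KO cells, a 4.31-fold ratio (4.03 to 4.61). The alpha chain H2-Aa stood at 280 and 972 CPM (3.47-fold, 3.29 to 3.65), and the beta chain H2-Ab1 at 199 and 692 CPM (3.48-fold, 3.27 to 3.70). Cd74 stood at 1012 CPM (988 to 1036) and 3372 CPM (3327 to 3418), a 3.33-fold ratio (3.24 to 3.43). The peptide-loading chain H2-DMb2 stood at 32.95 and 90.96 CPM (2.76-fold, 2.36 to 3.24), and its close copy H2-DMb1 at 4.88 and 24.1 CPM, where the counting could have split reads between both. Ciita itself was counted with 12 UMIs in WT and 27 in KO, 2.43-fold (1.19 to 5.27). H2-DMa, at 233 and 327 CPM, was the 1 measured gene of the list short of the limit. In all 8 of 9 measured were higher and 0 lower, with a median log2 ratio of 1.74.

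Promoters of 3 MHC class II genes and of Cxcl10 are shown because these genes were higher together in KO, and their known control elements are close to the start site. The sequences are RefSeq promoters on GRCm38.p6, from 250 bases before to 50 after the start, 5′ to 3′ on the gene's strand. They lie at chr17:34287774-34288073 (H2-Aa, minus), chr17:34305617-34305916 (H2-Eb1, plus), chr17:34144999-34145298 (H2-DMb2, plus) and chr5:92348840-92349139 (Cxcl10, minus). Capitals mark ATTGG or its reverse complement, the core of the Y box of MHC class II promoters, in the first 3, and a match to the core of the interferon-stimulated response element (ISRE) in Cxcl10.
H2-Aa: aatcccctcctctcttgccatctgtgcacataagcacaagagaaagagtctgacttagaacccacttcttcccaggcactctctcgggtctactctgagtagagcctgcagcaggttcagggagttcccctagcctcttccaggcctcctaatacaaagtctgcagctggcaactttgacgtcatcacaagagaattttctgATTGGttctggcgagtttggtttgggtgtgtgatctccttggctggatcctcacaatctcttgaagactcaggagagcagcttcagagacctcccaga
H2-Eb1: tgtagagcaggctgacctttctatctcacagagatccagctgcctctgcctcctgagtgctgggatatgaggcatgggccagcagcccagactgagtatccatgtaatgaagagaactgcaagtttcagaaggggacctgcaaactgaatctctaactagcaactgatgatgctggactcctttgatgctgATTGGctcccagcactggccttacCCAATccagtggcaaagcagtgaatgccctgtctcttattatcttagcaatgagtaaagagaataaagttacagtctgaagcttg
H2-DMb2: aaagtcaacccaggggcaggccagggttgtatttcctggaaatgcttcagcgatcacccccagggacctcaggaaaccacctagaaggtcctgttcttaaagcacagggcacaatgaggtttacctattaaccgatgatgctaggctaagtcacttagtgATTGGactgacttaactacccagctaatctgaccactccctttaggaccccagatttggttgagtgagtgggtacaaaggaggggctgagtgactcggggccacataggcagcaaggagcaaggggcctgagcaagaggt
Cxcl10: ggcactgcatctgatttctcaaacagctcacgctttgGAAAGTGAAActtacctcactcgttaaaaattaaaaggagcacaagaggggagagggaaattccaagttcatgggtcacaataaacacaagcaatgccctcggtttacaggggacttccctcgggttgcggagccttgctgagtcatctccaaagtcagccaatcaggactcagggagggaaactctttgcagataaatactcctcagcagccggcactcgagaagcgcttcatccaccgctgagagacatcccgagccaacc
The core ATTGG began 48 bases before the start of H2-Aa, 59 before that of H2-Eb1 and 90 before that of H2-DMb2, and in H2-Aa and H2-Eb1 it was part of the longer CTGATTGG. Searched on both strands, ATTGG was in all 7 MHC class II promoters held in the table, of 10 genes on the list, and in 37.4% of all 32841 promoters. CTGATTGG, which overlaps it, was in 3 of the 7 and in 4.10% of all. Of 17 promoters of the interferon gamma list, ATTGG was in 7 and CTGATTGG in 3. Cxcl10 was among these, with CTGATTGG on the other strand 54 bases before the start, not marked in capitals above. The interferon gamma element TTCNNNGAA was in 1 of the 7, in 9 of 17 promoters of the interferon gamma list and in 8.30% of all. The ISRE core was in 0 of the 7, in 10 of the 17 and in 3.44% of all. A match of these letters is a description and no sign of binding.

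The per-cell counts show how the MHC class II difference was spread. Thinned to 2000 UMIs, 60.9% of WT and 31.1% of KO cells held 0 Cd74 UMIs, and 5.26% and 21.4% held 10 or more. The median was 0 UMIs in WT and 2 in KO, and the highest cells held 70 and 106. The share of cells at 0 was thus lower in KO and the share at high counts higher.

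In the WT tumor the Cd74 level was 1659 CPM in C1q-low myeloid cells, 116 in neutrophils and 140 in keratin-positive cells. In the KO tumor it was 5438, 418 and 281 CPM, which gave ratios of 3.28, 3.60 and 2.01 beside the 3.33 of the C1q macrophages. H2-Eb1 had ratios of 3.74, 4.12 and 2.41 in these groups. In spleen cells taken by the same C1q rule the ratios were smaller, 1.37 for Cd74 (8785 and 12047 CPM) and 1.42 for H2-Eb1 (2326 and 3307 CPM). The share of these transcripts that came from free RNA was not tested.

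Genes induced by interferon gamma, the cytokine of T and natural killer cells that activates macrophages, were higher as a list. Of 20 measured, 15 were past 1.5-fold higher and 0 lower, with a median log2 ratio of 0.77. Cxcl9, which attracts T cells through CXCR3, stood at 14.2 CPM (41 cells) in WT and 67.3 CPM (82 cells) in KO, 4.75-fold (3.80 to 5.99). Cxcl10, with the same receptor, stood at 129 and 236 CPM (1.83-fold, 1.68 to 1.99), and Cd274, which encodes PD-L1, at 104 and 205 CPM (1.97-fold, 1.79 to 2.16). The immunity-related GTPases Ifi47 stood at 60.7 and 120 CPM, Iigp1 at 16.9 and 39.3 CPM and Igtp at 20.7 and 41.8 CPM. The serpin Serpina3g stood at 7.09 and 20.1 CPM. Genes of the list were past 1.5-fold higher in other groups as well, with 0 lower. Shares are given beside them for comparison genes, which were within the limits in C1q macrophages and held 30 or more UMIs in the group. List members needed only the 30 UMIs, so the sets are unlike. In C1q-low cells 10 of 20 were higher, with a median of 0.58, beside 1.95% of comparison genes higher and 2.17% lower (median 0.00). In neutrophils 13 of 17 were higher (median 1.01), beside 4.02% higher and 17.4% lower of comparison genes (median -0.22). In keratin-positive cells 11 of 19 were higher (0.70), beside 2.27% and 0.632% of comparison genes (-0.01). In spleen cells of the same rule 12 of 19 were higher (1.14), beside 5.95% and 7.26% (-0.03).

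Type I interferon response genes did not share this, with 0 of 23 higher and 1 lower and a median log2 ratio of 0.20. In keratin-positive cells of the same tumors 15 of 23 of them were higher, with a median of 0.70. The comparison genes there had the same 2.27% higher and median of -0.01. Of the MHC class I list 1 of 17 was higher, the peptide transporter Tap1 (62.1 and 93.7 CPM), and the median was 0.30. Ly6a, the stem cell antigen Sca-1 and itself inducible by interferons, stood at 124 and 370 CPM in C1q macrophages, 268 and 464 CPM in C1q-low cells and 153 and 570 CPM in keratin-positive cells. H2-Q6 stood at 90.9 and 186 CPM while its near copy H2-Q7 stood at 61.8 and 37.7 CPM, and reads could have been split between both.

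**Figure D3:**
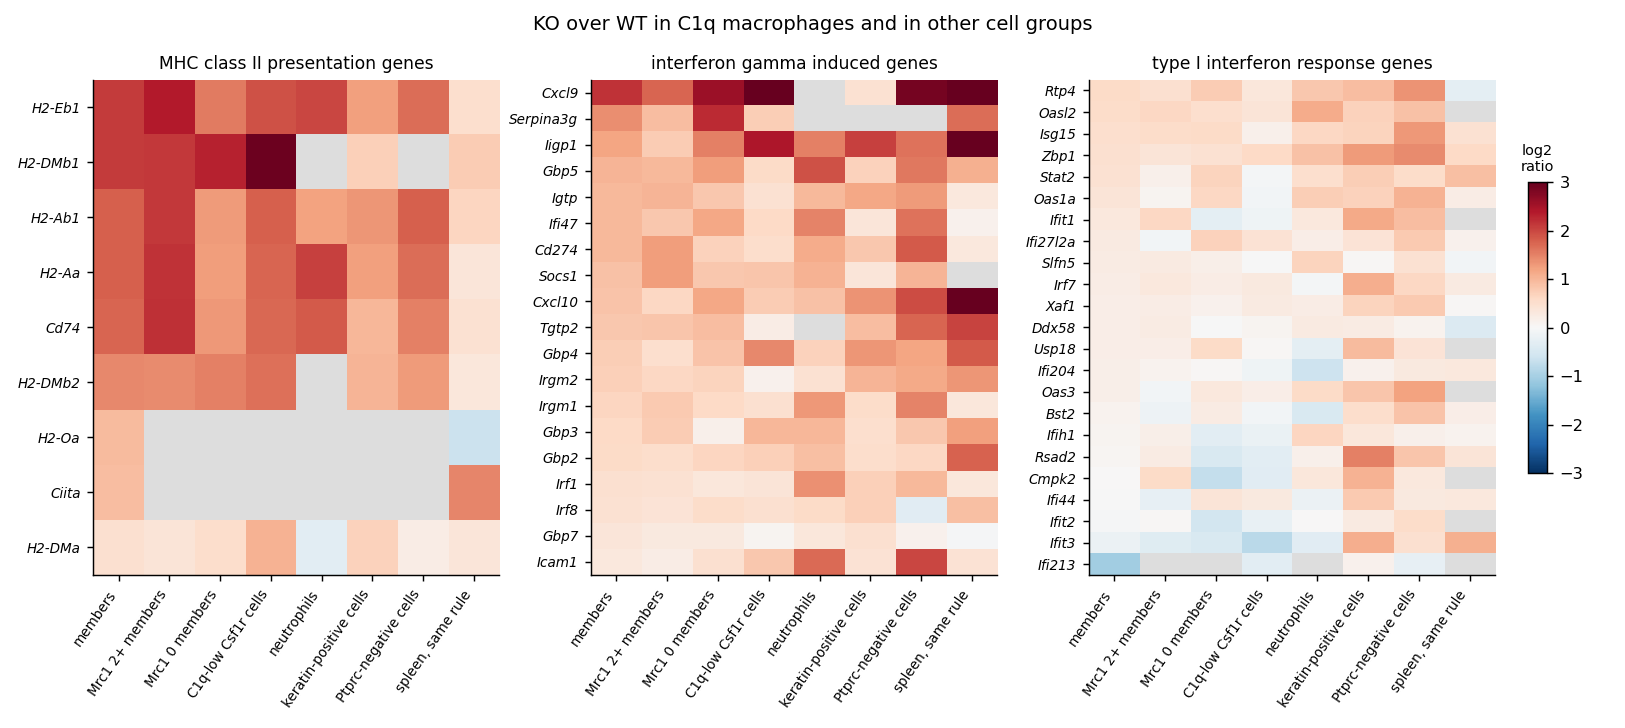
KO to WT log2 ratio of genes of the MHC class II, interferon gamma and type I interferon lists (rows) in C1q macrophages, in their Mrc1 2+ and Mrc1 0 cells, in other groups of the tumor and in spleen cells of the same rule (columns). Colours saturate at 3 in either direction and grey marks under 30 UMIs. MHC class II genes were higher in most groups, and the type I interferon genes more in keratin-positive cells than in C1q macrophages.

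Of the chemokine list 8 of 18 were higher and 1 lower. Ccl8 stood at 437 and 860 CPM (1.97-fold, 1.88 to 2.06), and Ccl5, the T cell attractant RANTES, at 51.9 and 114.6 CPM. Cxcl13 and Ccl22 were counted in 5 and 6 KO cells and in 2 and 3 WT cells, so their ratios rest on few cells. Ccl8 was higher in KO also in C1q-low cells (51.1 and 152 CPM) and lower in neutrophils (0.719). The member that was lower was Ccl24, which draws eosinophils, at 17.4 and 9.26 CPM. Ltb4r1, the receptor for leukotriene B4, stood at 41.4 and 93.7 CPM (2.26-fold, 1.96 to 2.62), and in neutrophils at 58.1 and 112 CPM. Among the other leukotriene genes Alox5ap (1143 and 1084 CPM), Ltc4s (68.7 and 49.8 CPM) and Alox5 (27.8 and 22.7 CPM) stayed within the limit, and of 11 measured 1 was higher and 1, Cysltr1, lower.

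The lipid carriers were lower in KO. Apoe (chromosome 7, 19696109 to 19699188) stood at 3950 CPM (3903 to 3998) in WT and 2046 CPM (2011 to 2082) in KO, a ratio of 0.518 (0.507 to 0.529). Thinned to 2000 UMIs, cells held a median of 6 Apoe UMIs in WT and 2 in KO, with 11.3% and 25.3% of cells at 0. Its log2 ratio of -0.95 was -0.86 in thinned cells and -0.59 in cells of 5000 to 12000 UMIs, close to the 1.5-fold limit. Apoc2, the activator of lipoprotein lipase, stood at 88.4 and 32.9 CPM (0.372, 0.316 to 0.437). Lpl, the lipase itself, stood at 7.98 and 33.03 CPM. Apoe was lower in KO also in C1q-low cells, at 2114 and 1082 CPM, and in spleen cells of the same rule, at 2942 and 2133 CPM. Over the lipid-associated list 2 of 21 were higher and 3 lower, so the list as a whole did not move, and Trem2 (412 and 355 CPM) and Spp1 (11306 and 10769 CPM) stayed within the limit.

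Among cytokines and early response genes, Tnf stood at 367 CPM (352 to 381) and 161 CPM (151 to 171), a ratio of 0.440 (0.408 to 0.473). In C1q-low cells its ratio was 0.817, and in spleen cells of the same rule it stood higher in KO, at 5.84 and 41.8 CPM. Tnf was higher in KO also in tumor neutrophils (1.54), keratin-positive cells (1.98), cells without Ptprc (2.20) and T cells (2.78). The immediate early factors Fosb (146 and 79.0 CPM) and Egr1 (299 and 175 CPM) were lower, 2 of 22 on the list of immediate early and heat shock genes, with 0 higher. Fosb was lower also in C1q-low cells (0.544) and keratin-positive cells (0.602). Of the NF-kB target and cytokine list 1 of 19 was higher and 3 were lower. The neutrophil attractants of this list went in opposite directions, with Cxcl3 at 317 and 541 CPM and Cxcl1 at 1427 and 899 CPM, and the suppressive cytokine Il10 stood at 11.2 and 6.06 CPM.

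Matrix genes differed in both directions, 4 of 17 higher and 4 lower. The metalloproteinases Mmp12, the macrophage elastase, and Mmp13, a collagenase, stood at 467 and 892 CPM and at 34.4 and 75.3 CPM. Fn1, fibronectin, stood at 1705 CPM (1674 to 1737) and 934 CPM (910 to 958), a ratio of 0.548 (0.531 to 0.565), Thbs1, thrombospondin-1, at 201 and 112 CPM, and Sparc at 62.4 and 35.6 CPM. The fibroblast markers in the same cells moved the same way, at 239 and 84.9 CPM in sum, and their part in these values was not tested. In other groups Fn1 was at 848 and 808 CPM in keratin-positive cells, 1164 and 840 CPM in C1q-low cells and 1004 and 512 CPM in neutrophils. The coagulation and matrix genes F13a1 (196 and 88.3 CPM) and Ecm1 (161 and 82.7 CPM) were lower as well, as were the ectoenzyme gene Cd38 (64.3 and 35.9 CPM) and the kinase gene Abl2 (67.1 and 35.8 CPM).

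Plbd1, a lysosomal phospholipase-like gene, was higher in KO at 32.95 and 88.1 CPM, and Glo1, the glyoxalase of methylglyoxal detoxification, at 57.3 and 123 CPM. Glo1 had a ratio of 0.949 in keratin-positive tumor cells and 2.58 in the spleen cells of the same rule. Rtf2, a replication fork factor, stood at 173 and 104 CPM, with 1.08 in keratin-positive cells and 0.524 in the spleen cells. For both genes the C1q cells of tumor and spleen differed in the same direction, and keratin-positive cells stayed within 1.5-fold.

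The other lists differed in how many genes were past the limit, beside 1.03% higher and 0.844% lower of the genes within the limits. Lysosomal, Fc receptor, prostanoid, transcription factor and cell cycle genes had 0 higher and 0 lower of 22, 14, 9, 24 and 22 measured. Tissue-resident type genes had 2 higher and 1 lower of 21, scavenger receptors 3 higher and 5 lower of 19, and complement genes other than C1q 2 higher and 0 lower of 14, among them C3 at 17.4 and 38.8 CPM. Suppressive and alternative activation genes had 6 higher and 1 lower of 18, monocyte genes 1 higher and 3 lower of 16, iron and heme genes 2 higher and 2 lower of 16, chemokine receptors 1 higher and 1 lower of 8, and hypoxia genes 1 higher of 22.

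**Figure D4:**
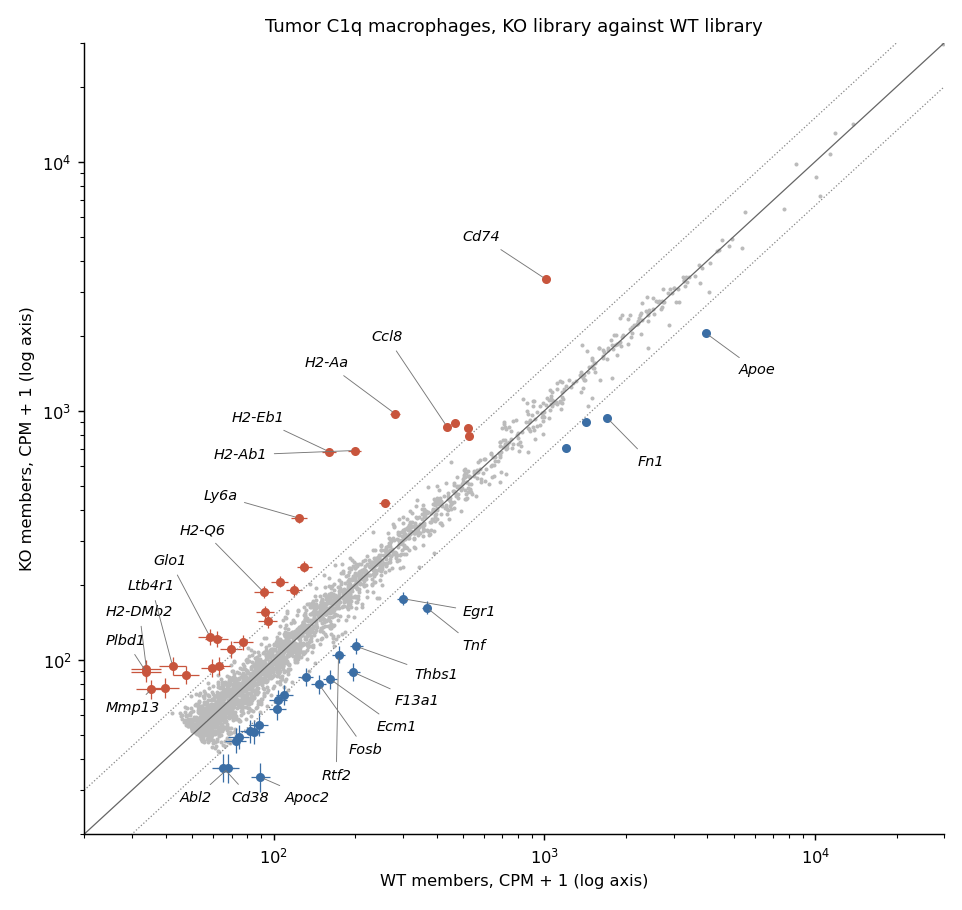
Level of each gene within the limits in C1q macrophages of the WT tumor (x) and the KO tumor (y), as CPM plus 1 on log axes, with genes past 1.5-fold higher in KO in red and lower in blue, both with 95% Poisson bars, and dotted lines at 1.5-fold. The MHC class II genes H2-Eb1, H2-Ab1, H2-Aa and Cd74 lie farthest above the diagonal, and Apoc2, Tnf, F13a1 and Apoe below it.

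The genotypes were then compared within each Mrc1 side. MHC class II genes were higher in KO on both sides, and Cd74, H2-Eb1, H2-Aa and H2-Ab1 had larger ratios in Mrc1 2+ cells. Of the scavenger receptors, 9 of 18 measured were lower in KO on the Mrc1 2+ side and 1 of 12 on the Mrc1 0 side. These counts are over unlike sets. Lyve1 and Cd163 were under 30 UMIs on the Mrc1 0 side and could not be counted there. Of 2816 genes in Mrc1 2+ cells, 40 (1.42%) were higher in KO and 47 (1.67%) lower, and of 2621 in Mrc1 0 cells 37 (1.41%) were higher and 43 (1.64%) lower. The sides share their libraries, and the difference between their ratios has no test.

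Cd74 stood at 719 and 3298 CPM in Mrc1 2+ cells (4.58-fold, 4.37 to 4.82) and at 1287 and 3163 CPM in Mrc1 0 cells (2.46-fold, 2.36 to 2.56). The KO sides thus had nearly the same level, and the WT sides did not. H2-Eb1 had ratios of 5.27 and 2.93, H2-Aa of 4.52 and 2.39, and H2-Ab1 of 4.41 and 2.447. The loading chains did not have larger ratios on the Mrc1 2+ side: H2-DMa had 1.31 and 1.45, H2-DMb2 2.74 and 2.905, and H2-DMb1 5.25 and 5.70. Thinned to 2000 UMIs, cells at 0 Cd74 UMIs made up 72.5% of WT and 31.2% of KO Mrc1 2+ cells, and 58.1% and 29.8% of Mrc1 0 cells. Of the MHC class II list 6 of 7 were higher on each side, with median log2 ratios of 2.13 and 1.30. These medians lay closer in cells of 5000 to 12000 UMIs, at 2.16 and 2.07. The interferon gamma list had 14 of 20 and 15 of 20 higher and 0 lower, with medians of 0.76 and 0.81.

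In Mrc1 2+ cells 9 of 18 scavenger and endocytic receptors were lower in KO and 1 was higher, with a median log2 ratio of -0.56. Cd163 stood at 63.6 CPM in WT and 23.5 in KO, Lyve1 at 112 and 51.1 CPM, Siglec1 at 125 and 78.0 CPM, and the lipid receptor Cd36 at 120 and 63.0 CPM. The apoptotic cell receptor Mertk stood at 35.97 and 18.65 CPM, Vsig4, a complement receptor, at 11.4 and 3.67 CPM, and the lectin Cd209g at 18.9 and 1.53 CPM, where 78.0% of the WT UMIs came from 1 cell. Folr2 (184 and 133 CPM) and Stab1 (222 and 165 CPM) stayed within 1.5-fold. In Mrc1 0 cells 2 of 12 were higher and 1 lower, with a median of 0.04, and Cd36 stood at 41.2 and 56.2 CPM. Tissue-resident type genes were higher in 0 and lower in 6 of 21 in Mrc1 2+ cells, among them F13a1 at 335 and 130 CPM.

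The Mrc1 2+ cells of the KO tumor had a higher median depth than those of the WT tumor, 11751 against 8710.5 UMIs. The values were therefore taken again in thinned cells and in a fixed depth range. Thinning evened the depth of each cell, but the sides stayed set by raw Mrc1 UMIs, so the choice of cells still followed depth. Thinned to 2000 UMIs, 6 of 11 scavenger receptors were lower in KO and 1 was higher, with a median log2 ratio of -0.66. In cells of 5000 to 12000 UMIs 6 of 15 were lower and 3 were higher, with a median of -0.21, nearer to 0 than the -0.56 of all Mrc1 2+ cells. Lyve1 had a log2 ratio of -1.12 in all Mrc1 2+ cells, -1.07 thinned and -3.0004 in that depth range. Tissue-resident type genes were lower in 6 of 19 thinned, with 1 higher, and in 2 of 20 in the depth range, with 3 higher.

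Other genes of the Mrc1 2+ side included Mmp12 (284 and 768 CPM), Cd274 (88.2 and 213 CPM), Ltb4r1 (31.8 and 102 CPM) and the heat shock gene Hspa1a (73.5 and 230 CPM), which stood nearly level on the Mrc1 0 side (265 and 263 CPM). On the Mrc1 0 side Tnf stood at 457 and 179 CPM, a ratio of 0.392 (0.348 to 0.441), against 0.543 (0.484 to 0.610) on the Mrc1 2+ side. Apoe was lower on both, at 0.513 in Mrc1 2+ and 0.446 in Mrc1 0 cells.

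Next, C1q macrophages were set beside the tumor's C1q-low myeloid cells, which held Csf1r and Tyrobp but at most 2 C1q UMIs (401 WT and 375 KO cells, with a median of 3808 and 4361 UMIs). C1q macrophages carried more Ccl8, Folr2 and Cx3cr1 transcripts and more transcripts of the cell cycle, and C1q-low cells more of the monocyte and type I interferon genes. C1q chose both groups, so this is a description. Neutrophil markers summed to 9577 CPM in WT and 7020 CPM in KO C1q-low cells, against 3072 and 3773 CPM in C1q macrophages, and fibroblast markers to 440 and 133 CPM, against 239 and 84.9 CPM. Their part in these ratios was not tested. Of 2693 genes 60 (2.23%) were higher in the C1q macrophages of both libraries and 146 (5.42%) lower.

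Ccl8 stood at 437 against 51.1 CPM in WT and 860 against 152 CPM in KO. Ch25h, the enzyme that makes 25-hydroxycholesterol, stood at 118 against 24.1 CPM and 190 against 54.4 CPM. Folr2 stood at 96.2 against 34.8 CPM and 87.4 against 30.3 CPM, and Cx3cr1, the fractalkine receptor, at 125 against 47.7 CPM and 120 against 33.3 CPM. Gatm, the first enzyme of creatine synthesis, stood at 907 against 282 CPM and 1042 against 404 CPM, and the nucleoside-triphosphatase gene Ntpcr at 163 against 46.0 CPM and 155 against 46.7 CPM.

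Lower in C1q macrophages were the osteoclast-type genes Ctsk (77.9 against 1640 CPM in WT, 70.9 against 1334 CPM in KO) and Acp5 (87.8 against 1356 CPM, 60.6 against 1041 CPM). The gelatinase Mmp9 stood at 34.0 against 398 CPM and 62.7 against 526 CPM, and the acute phase gene Saa3 at 65.6 against 491 CPM and 15.2 against 152 CPM. Of the monocyte markers, Ly6c2 stood at 48.5 against 305 CPM and 43.7 against 329 CPM, and its near copy Ly6c1 at 15.8 against 94.9 CPM and 21.7 against 212 CPM. The C1q-low group thus held osteoclast-type and monocyte transcripts, and it was not divided further.

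Monocyte genes were lower in 11 of 16 in WT and 12 of 16 in KO, with 1 higher in each and medians of -1.51 and -1.52. Type I interferon genes were lower in 21 and 18 of 23 with 0 higher, with medians of -1.08 and -0.88. Of the genes within the limits 7.95% and 7.98% were lower in each library alone. Isg15 stood at 425 against 1176 CPM in WT and 605 against 1308 CPM in KO, and Rsad2 at 250 against 776 CPM and 259 against 626 CPM. Tissue-resident type genes were higher in 10 of 21 in WT and 11 of 21 in KO. Pf4 (709 against 730 CPM in WT, 883 against 992 CPM in KO) stayed within 1.5-fold, although it followed Mrc1 among the C1q macrophages.

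Cell cycle genes were higher in 11 of 22 in WT and 13 of 22 in KO with 0 lower, with medians of 0.60 and 0.69. Of the genes within the limits 3.86% and 3.45% were higher. Mki67 stood at 162 against 94.3 CPM in WT and 134 against 79.0 CPM in KO. Thinned to 2000 UMIs, 39.3% of WT (35.9 to 42.9) and 36.1% of KO C1q macrophages (32.2 to 40.2) held at least 1 UMI of Mki67, Top2a, Birc5, Cdk1 and Ccnb1 together. The share was 27.1% and 24.2% in C1q-low cells, 8.11% and 7.92% in spleen cells of the same rule and 42.1% and 37.5% in keratin-positive cells. In tumor neutrophils it was 30.4% (20.5 to 41.8) of 79 WT and 32% (21.7 to 43.8) of 75 KO cells. In T cells it was 35.3% and 40.5%, and in cells without Ptprc 48.8% and 44.6%. Cells under 2000 UMIs were left out, so 295 WT and 289 KO C1q-low cells and 74 WT and 101 KO spleen cells remained. Unthinned, 42.9% and 41.8% of C1q macrophages held at least 2. Free RNA can give such UMIs as well, and phase was not called. The share was about equal in Mrc1 2+ (38.3% and 35.8%) and Mrc1 0 cells (40.4% and 39.1%).

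The same rule in the spleen took 104 of 8962 WT cells (1.16%, 0.949 to 1.404) and 153 of 8257 KO cells (1.85%, 1.57 to 2.17), with median depths of 4070.5 and 3869 UMIs. These cells carried the transcripts of red pulp macrophages, which recycle iron from red cells, whereas the tumor cells carried transcripts of hypoxia, matrix and chemokines. Of 2959 genes 551 (18.6%) were higher in the tumor in both genotypes and 711 (24%) lower. Mrc1 itself stood at 278 and 340 CPM in the tumor and at 1352 and 1159 CPM in the spleen, and 71.2% and 68.0% of spleen cells held 2 or more UMIs.

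Higher in the tumor was Vegfa, the angiogenic factor, at 141 CPM in WT and 125 CPM in KO, against 0 UMIs in both spleen groups, at least 24.04-fold and 34.0-fold higher against a floor of 3 counts over each spleen group. Ch25h stood at 118 and 190 CPM against 0 UMIs, at least 20.2-fold and 51.4-fold higher. Ccl8 was at 0 UMIs in WT spleen cells, at least 74.7-fold lower than in the tumor, and at 6 UMIs in KO spleen cells, all from 1 cell. Pmepa1, a TGF-beta induced gene, stood at 539 and 462 CPM, with 1 and 2 UMIs in the spleen cells. Fn1 was counted with 9 UMIs in WT and 0 in KO spleen cells, and in KO the tumor level was at least 253-fold higher. Cxcl14 and Pdpn were at 0 UMIs in KO spleen cells, and the tumor levels were at least 105-fold and 61.8-fold higher. Ccl12 stood at 519 and 848 CPM against 5.84 and 12.3 CPM.

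Lower in the tumor were Spic, the transcription factor that specifies red pulp macrophages, at 2.36 against 963 CPM in WT and 3.35 against 1243 CPM in KO, and the adhesion molecule Vcam1 at 22.2 against 3752 CPM and 21.2 against 3863 CPM. The iron exporter Slc40a1 stood at 10.9 against 2055 CPM and 19.5 against 2837 CPM, and Cd5l, a secreted scavenger protein, at 0.887 against 542 CPM and 3.83 against 672 CPM. Ccr3, a chemokine receptor, stood at 1.77 against 573 CPM and 0.319 against 580 CPM. The integrin gene Itgad was at 0 UMIs in both tumor groups and at 853 and 863 CPM in the spleen, at least 1925-fold and 1802-fold higher there. Hpgd, which degrades prostaglandins, was at 0 UMIs in WT tumor cells and at least 1042-fold higher in the spleen. Adgre4 was at 0 UMIs in KO tumor cells and at least 776-fold higher in the spleen.

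By list, hypoxia and glycolysis genes were higher in the tumor in 21 of 22 in WT and 20 of 22 in KO with 0 lower, with medians of 2.43 and 2.84 (2.396 and 2.757 with genes at 0 set to the floor). The share of genes within the limits that were higher was 22.7% and 25.4% in each genotype alone. The glycolytic enzyme Ldha stood at 1592 against 353 CPM in WT and 1789 against 244 CPM in KO, and the mitophagy gene Bnip3 at 264 against 23.4 CPM and 324 against 14.8 CPM. Iron and heme genes were lower in 13 of 16 in each genotype, with medians of -1.96 and -2.27. Of the genes within the limits 28.1% and 29.8% were lower. The heme oxygenase gene Hmox1 stood at 986 against 3088 CPM and 803 against 5177 CPM.

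MHC class II genes were lower in the tumor in 7 of 8 in WT and 8 of 9 in KO. Cd74 stood at 1012 against 8785 CPM in WT and 3372 against 12047 CPM in KO. Chemokines were higher in the tumor in 13 of 15 in WT and 12 of 16 in KO, and Ccl2, the main monocyte attractant, stood at 1927 against 68.2 CPM and 2415 against 8.61 CPM. Cell cycle genes were higher in 18 of 22 in each. Markers of several other cell types were more abundant in the spleen groups. Neutrophil markers summed to 22170 and 7998 CPM, against 3072 and 3773 CPM in the tumor, and red cell markers to 846 and 2455 CPM, against 0.148 and 0.160 CPM. B and plasma cell markers summed to 335 and 470 CPM, against 4.43 and 13.7 CPM, and T cell and dendritic cell markers were higher too. Those of endothelium, carcinoma cells and monocytes were lower in the spleen groups. Those of natural killer cells and fibroblasts were lower in WT and higher in KO. The part of these transcripts in the ratios was not tested.

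**Figure D5:**
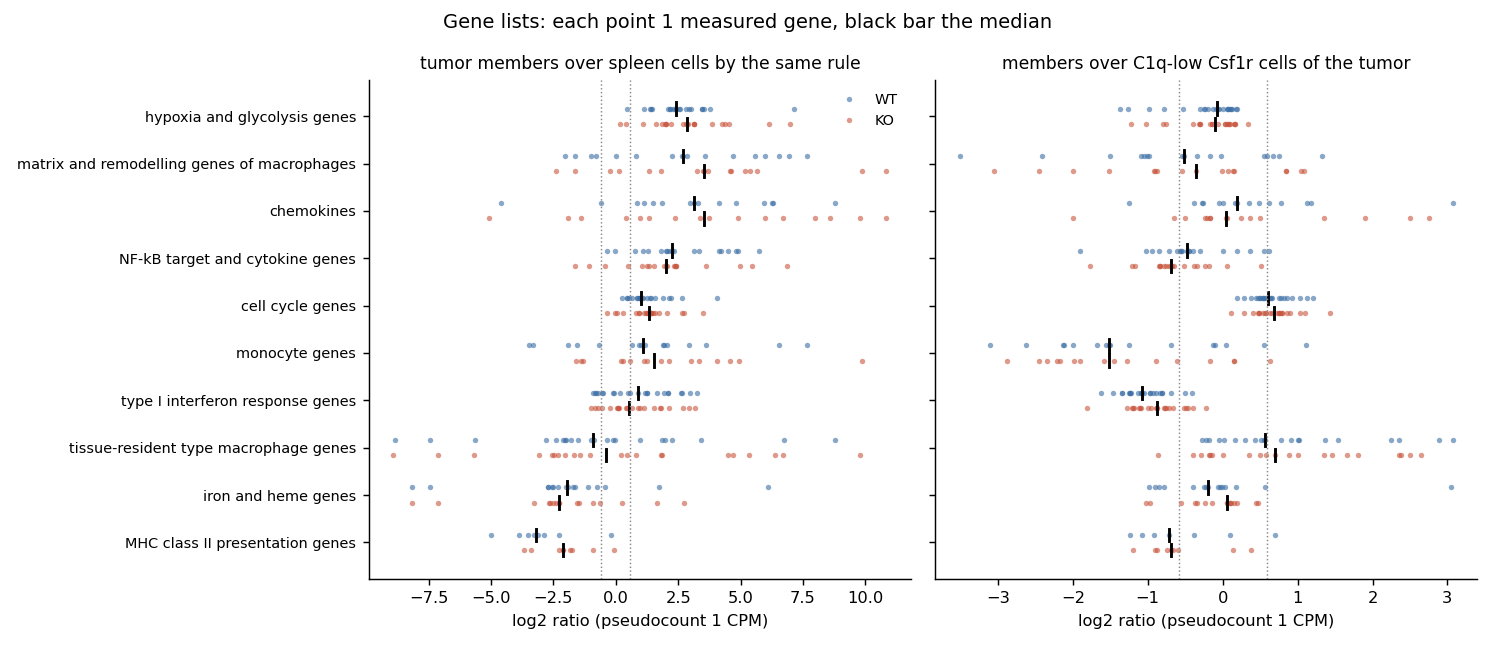
Members of 10 gene lists as log2 ratios, for tumor C1q macrophages over spleen cells of the same rule and over the tumor's C1q-low myeloid cells, with each point a gene, black bars at the medians, dotted lines at 1.5-fold, and WT in blue and KO in red. Hypoxia genes lie above 0 and iron and heme genes below 0 against the spleen, and type I interferon and monocyte genes lie below 0 against C1q-low cells.

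A subset of the C1q macrophages held neutrophil transcripts. At least 20 UMIs of S100a8 and S100a9 were counted in 188 WT cells (24.4%, 21.4 to 27.6) and 196 KO cells (33.2%, 29.4 to 37.1). Their Csf3r, the receptor of a neutrophil growth factor, stood at 71.0 and 73.0 CPM, against 8.89 and 13.9 CPM in the other C1q macrophages. Their S100a9 level of 6113 and 6014 CPM, against 142 and 135 CPM, follows from the choice. Their C1qa levels of 2325 and 2390 CPM and Cd68 levels of 762 and 718 CPM were close to those of the other cells (2649 and 2770 CPM, 712 and 734 CPM). Il1b was higher in them, at 1860 against 785 CPM in WT and 2000 against 923 CPM in KO. Of them 40.4% in WT and 54.6% in KO held 2 or more Mrc1 UMIs, against 33.3% and 38.99% of the others. They were deeper, with a median of 9484 and 11712.5 UMIs against 7610 and 8850. Without them the log2 ratio of KO to WT was 1.90 for Cd74 and -1.26 for Apoe, beside 1.74 and -0.95 with them. The source of the neutrophil transcripts was not tested.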

How the data were processed

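Single-cell libraries were made with 10x Genomics kits, per the labels' protocols, which name a 5' kit in one place and a 3' v3 kit in another; the transcript end is unsettled. The authors deposited whole-number UMI counts for 32285 genes in each cell barcode. Reads were processed with Cell Ranger 6.0.0 on mm10, per the submitters' processing notes (6.1.0, per the file headers). Cells needed 300 or more genes, 500 or more UMIs and no more than 10% of UMIs from mitochondrial genes. UMIs were summed over the cells of a group and scaled to CPM. A gene was called higher or lower past 1.5-fold after 1 CPM was added to each level, and list members were measured at 30 or more UMIs. Intervals are exact Poisson, exact conditional for ratios, and Clopper-Pearson for shares. Other groups were taken by UMI rules. Neutrophils held Csf3r and at least 5 S100a9, with 0 Csf1r, 0 Cd3e, at most 2 C1q and at most 1 keratin UMI. Keratin-positive cells held at least 5 Krt8 and Krt18, with 0 Tyrobp and 0 Cd3e. T cells held at least 2 CD3, with 0 Tyrobp and at most 1 keratin UMI. Cells without Ptprc held 0 Ptprc, 0 Tyrobp, 0 Cd3e and at most 1 keratin UMI. C1q-low cells also held 0 Cd3e and at most 1 keratin UMI. Their levels of these genes were partly set by the rules. The text names the top 12 genes each way of the Mrc1 split and of KO against WT, 8 each way against the spleen, 6 each way against C1q-low cells, and up to 4 per list, together with markers. Single genes that this rule would name are not all reported here. The cells, the 23 gene lists and the 11 marker lists were chosen with earlier results of these data known. On simulated counts for KO against WT over 2802 genes, 50 of 50 genes changed at each of 4 sizes were called, and 0 of 2602 unchanged genes. These counts were Poisson draws without variation between cells or mice, with changed genes set at log2 ratios of 1 or 2 either way. They give no rate of false calls under such variation. Of unchanged genes 1 of 2690 was called for Mrc1 2+ cells, 3 of 2442 for Mrc1 0 cells, and for the Mrc1 split 0 of 2503 in WT and 6 of 2380 in KO. Positions came from GENCODE on GRCm38 for 32235 genes. In the tumor libraries 19 antibody features held 3 and 2 counts and were left out. Python 3.11.15, NumPy 2.4.6, SciPy 1.17.1, scikit-learn 1.9.0 and matplotlib 3.10.9 were used. Alternatives changed the C1q and Mrc1 limits, the mitochondrial limit, doublets, depth, gene limits and scaling. Doublets were scored against simulated pairs.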

Additional observations from a re-analysis of the deposited data

Results flagged for a closer look

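Genes whose ratios pointed in opposite directions in a pair of groups were listed, each past 1.5-fold one way and the other. Each group is 1 library or a side of it, and none of these differences was tested.

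Ctsk, the osteoclast protease cathepsin K, had a KO to WT log2 ratio of 3.39 in Mrc1 2+ cells and of -3.98 in Mrc1 0 cells. Its Mrc1 2+ to Mrc1 0 log2 ratio was -3.75 in WT and 3.62 in KO. A single WT cell with 0 Mrc1 UMIs held 90.8% of the Ctsk UMIs of its side, and a single KO cell held 57.5% of those of the Mrc1 2+ side. Acp5, the osteoclast acid phosphatase, had an Mrc1 2+ to Mrc1 0 log2 ratio of -0.91 in WT and 0.70 in KO, with 55.6% and 34.0% of the UMIs of the higher side in 1 cell.

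Between tissues, Ifitm1, an interferon-induced membrane protein, had a KO to WT log2 ratio of 0.60 in tumor C1q macrophages and -2.45 in spleen cells of the same rule. Egr1, the immediate early factor, had -0.77 in the tumor and 1.44 in the spleen, where it stood at 298 CPM in WT and 809 CPM in KO cells.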

How the results depend on the processing

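With 1 library per tissue and genotype, no result has a replicate check, and counting intervals hold no variation between mice. No paired analysis was possible because each group had 1 library. The share of C1q macrophages was 10.3% (WT) and 11.04% (KO) at 5 or more C1q UMIs and 7.72% and 7.92% at 20 or more. It was 9.86% in WT at 5% mitochondrial UMIs, 8.58% in KO without doublets, and 6.78% and 6.23% without cells of 20 or more S100a8 and S100a9 UMIs. The Mrc1 2+ share was 38.9% in WT at 20 or more C1q UMIs, 39.0% in KO without the S100 cells, and 12.1% and 12.2% at 2000 UMIs.

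For the Mrc1 split, 72 genes were higher with 3 or more Mrc1 UMIs against 0, 19 with 1 or more, 24 thinned and 148 with limits of 30 UMIs and 10 CPM. Genes lower numbered 1 at 5 C1q UMIs, without doublets, with 1 or more Mrc1 UMIs, thinned, without the S100 cells and without the highest cell. They numbered 3 with 3 or more Mrc1 UMIs, 15 with the wider limits, 2 by per-cell means and 6 in cells of 5000 to 12000 UMIs. Thinned, 15 of the 39 genes were called again, of 1366 that could be compared, and with 3 or more Mrc1 UMIs 38 were.

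For KO against WT in all C1q macrophages, 59 genes were lower thinned, 39 lower without the S100 cells, 53 higher at 5000 to 12000 UMIs, and 108 higher and 100 lower with the wider limits. Thinned, 23 of the 28 higher and 17 of the 23 lower genes were called again. In Mrc1 2+ cells the wider limits gave 199 and 235, 100 were lower without the S100 cells and 85 higher at 5000 to 12000 UMIs. In Mrc1 0 cells 65 were lower at 20 C1q UMIs, 67 without ribosomal and mitochondrial genes and 69 without the S100 cells. The wider limits gave 209 and 315 there, and 5000 to 12000 UMIs gave 81 and 79. Against the spleen 283 genes were lower when thinned. The last 3 settings, by S100 cells, by depth range and by highest cell, were chosen after the data were seen.

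Reversed were Ngp in Mrc1 2+ cells, with a KO to WT log2 ratio of -0.43 at 5000 to 12000 UMIs and -0.16 without its highest cell, Ctsk there at -1.28, and Acp5 in Mrc1 0 cells at 0.25, both at 5000 to 12000 UMIs. The cause of each change was not tested. Named values stayed past 1.5-fold in 96 of 96 cases without doublets and by per-cell means, in 91 of 96 at 5000 to 12000 UMIs, and in 150 of 152 when thinned.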

Other observations

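These genes lie outside the naming rule and were picked after their values were seen. Sfi1, a centrosome protein, stood at 11.4 CPM in WT and 39.3 CPM in KO C1q macrophages (3.45-fold), with a ratio of 1.32 in keratin-positive cells and 2.93 in spleen cells of the same rule. Arl2bp, a ciliary GTPase partner, stood at 34.6 and 9.73 CPM (0.282), with ratios of 1.01 and 0.316. Mgl2, a galactose-type lectin of alternatively activated macrophages, stood at 8.87 and 31.1 CPM, and Nos2, the inducible nitric oxide synthase, at 14.04 and 33.7 CPM, so both a classical and an alternative activation gene were higher in KO. Arg1, the arginase that competes with it for substrate, stood at 912 and 1092 CPM (1.20-fold).

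Retnla, another alternative activation gene, held 1 UMI in WT and 221 UMIs in KO cells, of which 92.8% came from 1 cell. In Mrc1 2+ cells of the KO tumor the granule gene Camp held 432 UMIs, of which 99.8% came from 1 cell.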
